A study of Mus musculus with 8 samples.

Results

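The 7 chemokine receptor genes Cxcr3, Cxcr4, Cxcr6, Ccr2, Ccr4, Ccr6 and Ccr8 were followed in RNA from mouse regulatory T (Treg) cells that lacked RelB, NF-kB2 or both. They were taken by symbol from a deposited table of 22432 genes, and all 7 had a row. RelB and the NF-kB2 product p52 are the transcription factor subunits of the alternative NF-kB pathway. The table holds 2 libraries from each of 4 genotypes on a C57Bl/6 background. Every genotype carried Foxp3-CRE-YFP, a Cre recombinase with a yellow fluorescent reporter driven by Foxp3, the gene that defines Treg cells. WT cells carried it alone, RelB-KO cells were also RelB F/F, Nfkb2-KO cells were also nfkb2 F/F, and DKO cells carried both floxed genes, so that deletion is directed to cells that express Foxp3. Age and sex are not given in the labels. YFP+ cells, sorted out of a pool of spleen and lymph node cells, were cultured for 16 h with plate-bound anti-CD3 (5 µg/ml), anti-CD28 (1 µg/ml), an agonist antibody to the TNF receptor family member OX40 (2 µg/ml) and IL-2 (10 ng/ml). Whether the libraries came from separate mice is not stated, so the p-values below measure only the spread between these libraries.

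Chemokine receptors are G protein-coupled receptors that steer a T cell along a gradient of secreted chemokine. Treg cells lose or gain them as they leave lymphoid organs and settle in inflamed or barrier tissues. CXCR3 binds CXCL9, CXCL10 and CXCL11 and marks cells drawn to type 1 inflammation, CXCR6 binds CXCL16, and CCR2 binds CCL2 and its relatives at sites that recruit monocytes. CCR4 binds CCL17 and CCL22 and is known for skin homing, CCR8 binds CCL1 and is abundant on tissue and tumour Treg cells, and CCR6 binds CCL20 and is shared with Th17 cells of the gut. CXCR4, the receptor for CXCL12, retains cells in bone marrow and lymphoid niches.

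The values are the authors' log2 expression, read as a scale relative to library size. Values near the bottom of the scale varied little between libraries. A given difference may therefore be understated more for a weak gene than for a strong one, which was not tested. The targeted genes matched the labels. Relb lay between 10.49 and 10.84 where it was intact and between 6.35 and 7.08 where it was deleted, and Nfkb2 lay between 12.31 and 12.80 where intact and between 8.75 and 9.85 where deleted. Foxp3 was between 13.95 and 14.28 in all 8 libraries. Several defining markers of other cells were at or near the bottom of the scale. The B cell marker Pax5 was listed at 0 and the natural killer cell marker Ncr1 was near -2.09. Others were detected, with Cd8b1 at 7.57 to 7.87, the B cell receptor component Cd79b at 7.09 to 7.72 and the myeloid marker Cd68 at 6.80 to 7.51. One library stood apart: WT replicate 1 had Xist at 8.17 and Ddx3y at 11.60, while the other libraries had Xist between 14.61 and 15.13 and Ddx3y between 4.25 and 4.35. Both are sex-linked, Xist being a transcript of female cells and Ddx3y of male cells. Every comparison that includes WT therefore also includes this difference, and its part in the receptor values was not tested. Because this is bulk RNA, fewer cells with a receptor and less receptor RNA per cell cannot be told apart.

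All 7 receptors were expressed above the filter. The levels were compared per kilobase of exon, since longer transcripts collect more reads. On the log2 per kilobase scale the mean over the 8 libraries was highest for Ccr8 at 12.03, followed by Ccr4 at 10.76 and Cxcr4 at 10.11. Cxcr3 at 9.37 and Cxcr6 at 9.11 were neighbours, and in the DKO libraries their order was the opposite, with means of 9.24 ± 0.06 (SD, n = 2) for Cxcr3 and 9.41 ± 0.44 (SD, n = 2) for Cxcr6. Ccr6 followed at 8.17 and Ccr2 was lowest at 6.12. Ccr4 and Cxcr4 also did not separate in WT cells, where the levels per kilobase were 10.41 ± 0.29 (SD, n = 2) and 10.48 ± 0.05 (SD, n = 2). The level per kilobase of Ccr2 depends on its annotated exons, which span 6.76 kb in all against 1.18 to 3.09 kb for the others. Ccr2 was also the lowest of the 7 before that division, with a mean of 8.875 beside 9.38 for Ccr6. Without division by length, the mean log2 value of Ccr4 exceeded that of 95.1% of the 13797 genes tested and that of Ccr2 exceeded 51.4%.

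Across genotypes the receptors did not move as a block. Ccr6 was higher in both Nfkb2-KO libraries than in any other library, Cxcr3 was lower in all 6 knockout libraries than in both WT libraries, Cxcr4 was lower than WT in both Nfkb2-KO and both DKO libraries, and Ccr4 was highest in the DKO libraries. The median log2 difference of the 7 receptors was -0.05 in RelB-KO, 0.08 in Nfkb2-KO and 0.19 in DKO against WT, beside medians of all tested genes within 0.01 of 0. Against Nfkb2-KO the DKO median was 0.35.

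None of these differences was called with the linear model on the 4 genotype means (limma, Benjamini-Hochberg adjusted p under 0.05 over all 13797 genes). That model called 0 of the 7 receptors in RelB-KO against WT, where it called 0.00725% of all genes, 0 in Nfkb2-KO against WT, where it called 0.341%, and 0 in DKO against WT, where it called 0.0145%. It also called 0 of 7 in DKO against Nfkb2-KO (0.768% of all genes), in DKO against RelB-KO (0.00725%), in Nfkb2-KO against RelB-KO (0.797%) and in the interaction (0.00725%), which asks whether losing both genes differs from the sum of the single losses. At an unadjusted p under 0.05, limma gave 1, 2 and 2 of the 7 receptors in RelB-KO, Nfkb2-KO and DKO against WT, where 1.24%, 10.7% and 5.18% of all genes passed. The corresponding counts were 2 in DKO against Nfkb2-KO (9.86% of all genes), 0 in DKO against RelB-KO (2.88%), 1 in Nfkb2-KO against RelB-KO (11.9%) and 1 in the interaction (4.45%).

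Libraries with the same replicate number shifted together in every pair of genotypes, so the model was also fitted with replicate number as a block. With the block, Ccr6 was the 1 receptor called in Nfkb2-KO against WT (2.91% of all genes called), in DKO against Nfkb2-KO (5.02%) and in Nfkb2-KO against RelB-KO (4.46%). The blocked model called 0 of 7 receptors in RelB-KO against WT (0.0145% of all genes), DKO against WT (0.0652%), DKO against RelB-KO (0.0145%) and the interaction (0.471%). At an unadjusted p under 0.05 the blocked model had 1, 4, 3 and 2 of the 7 receptors in those 4 comparisons, beside 3.13%, 12.9%, 8.81% and 8.36% of all genes. In the 3 comparisons where it called Ccr6 it had 3, 4 and 2 receptors at that p, beside 18.3%, 16.3% and 20.1% of all genes. The authors' deposited table gives its own adjusted p-values for the knockouts against WT. By these, 1 receptor passed 0.05 in RelB-KO (Cxcr3, with 0.119% of the genes given an adjusted p passing), 1 in Nfkb2-KO (Ccr6, 6.22%) and 2 in DKO (Cxcr3 and Ccr8, 1.23%). The WT libraries are shared by the 3 comparisons with WT, which are therefore not independent of each other.

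**Figure D1:**
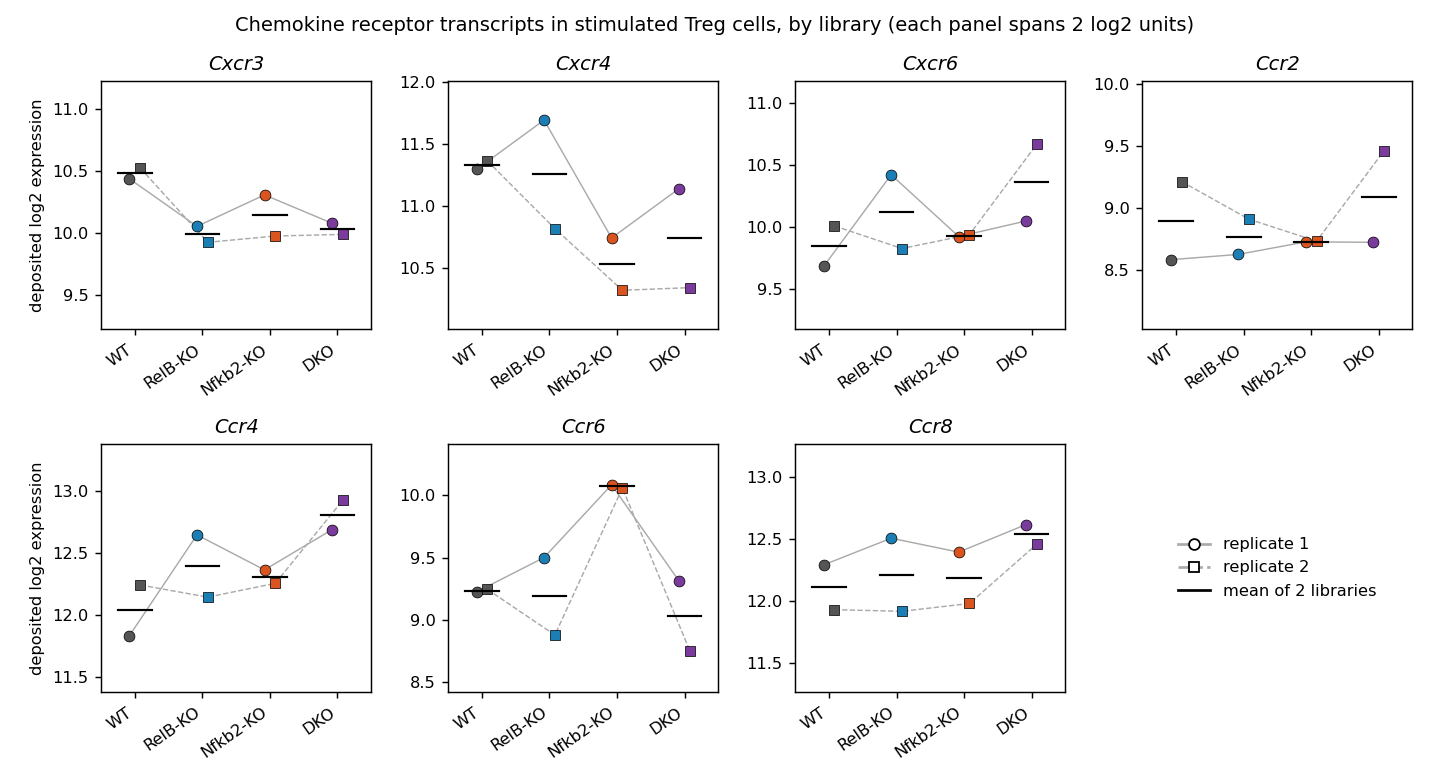
Deposited log2 expression (y axis) of each receptor in the 8 libraries by genotype (x axis), with circles for replicate 1, squares for replicate 2, grey lines joining libraries of the same replicate number and black bars for the mean of 2 libraries. Ccr6 lies at 10.09 and 10.06 in Nfkb2-KO cells and at or below 9.50 in the other libraries, while Cxcr3 is highest in WT.

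**Figure D2:**
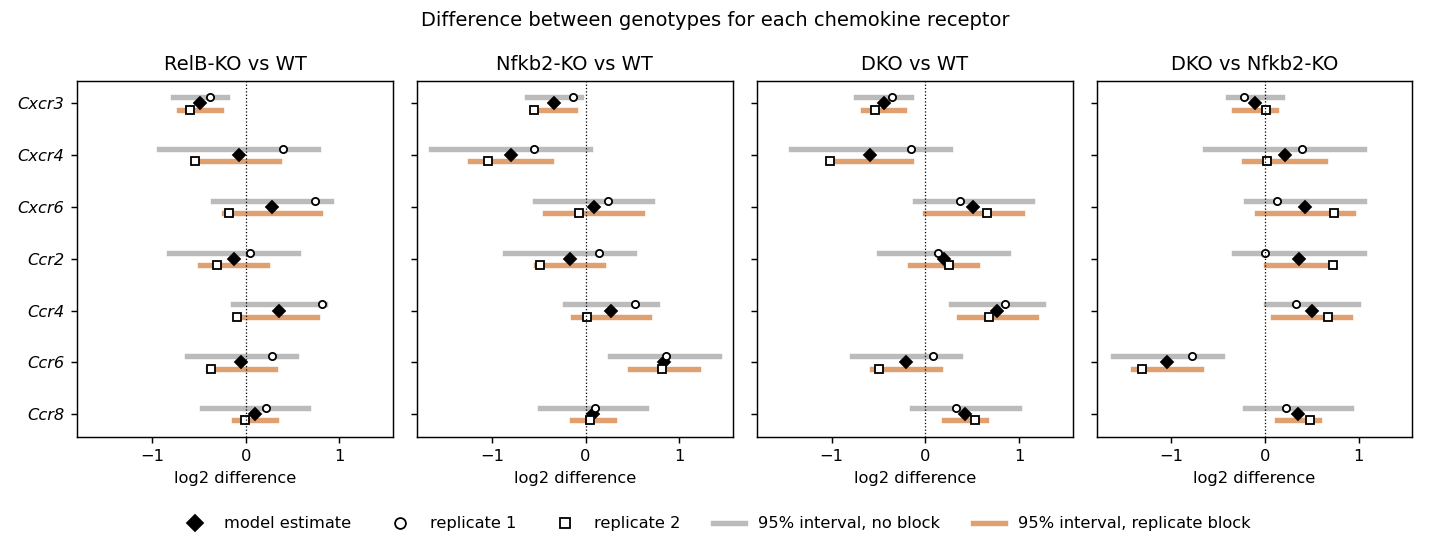
Log2 difference (x axis) for each receptor (y axis) in 4 comparisons, with diamonds for the limma estimate, open circles and squares for the differences of replicate 1 and replicate 2, and bars for the 95% interval without (grey) and with (orange) the replicate block. For Ccr6 both intervals lie above 0 in Nfkb2-KO against WT and below 0 in DKO against Nfkb2-KO.

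Ccr6 encodes the only known signalling receptor for CCL20 and lies on chromosome 17 (GRCm38, 8236043 to 8257141, plus strand). RefSeq gives it a pair of promoters, and the upstream one starts at the first base of the gene as GENCODE annotates it while the downstream one lies within it. Both are shown because Ccr6 was the receptor called, beside those of Cxcr3 and Ccr8, which passed in the authors' table. Each covers 250 bases before to 50 bases after the start, taken from RefSeq on GRCm38.p6 and written 5′ to 3′ on the strand of the gene. Capitals mark matches to the 10-letter kappaB consensus, the motif bound by NF-kB dimers, which was searched on both strands.
Ccr6 upstream start, chr17:8235793-8236092 (plus strand): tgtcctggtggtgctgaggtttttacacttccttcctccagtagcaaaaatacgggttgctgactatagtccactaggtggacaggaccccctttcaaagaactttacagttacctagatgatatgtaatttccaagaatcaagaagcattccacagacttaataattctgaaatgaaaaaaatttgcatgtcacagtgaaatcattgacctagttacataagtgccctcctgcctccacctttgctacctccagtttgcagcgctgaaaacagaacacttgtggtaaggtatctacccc
Ccr6 downstream start, chr17:8242276-8242575 (plus strand): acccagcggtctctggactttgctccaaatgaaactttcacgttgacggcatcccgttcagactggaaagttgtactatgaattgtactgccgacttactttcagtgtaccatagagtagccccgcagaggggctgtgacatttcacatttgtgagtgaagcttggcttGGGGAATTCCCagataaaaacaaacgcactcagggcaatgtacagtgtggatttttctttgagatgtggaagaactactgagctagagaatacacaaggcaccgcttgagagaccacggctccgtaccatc
Cxcr3, chrX:101734098-101734397 (minus strand): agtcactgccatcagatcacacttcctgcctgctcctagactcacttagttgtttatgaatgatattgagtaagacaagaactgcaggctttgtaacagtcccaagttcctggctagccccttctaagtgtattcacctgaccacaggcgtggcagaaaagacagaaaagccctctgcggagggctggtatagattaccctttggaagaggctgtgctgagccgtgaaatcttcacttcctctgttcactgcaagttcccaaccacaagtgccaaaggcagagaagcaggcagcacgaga
Ccr8, chr9:120091883-120092182 (plus strand): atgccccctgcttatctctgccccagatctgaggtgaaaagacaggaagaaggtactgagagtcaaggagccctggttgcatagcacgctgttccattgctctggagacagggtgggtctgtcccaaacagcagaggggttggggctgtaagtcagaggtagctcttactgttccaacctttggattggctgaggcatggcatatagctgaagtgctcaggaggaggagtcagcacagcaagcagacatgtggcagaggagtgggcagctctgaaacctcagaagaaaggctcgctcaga
Of the 8 promoters of the 7 receptors, 1 held the consensus, the downstream promoter of Ccr6. Its matches on the 2 strands overlap and merge into GGGGAATTCCC at positions -81 to -71 from the start. The consensus was present in 1480 of 32851 RefSeq promoters of the same length (4.51%). A match describes letters in this window and no binding was measured.

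The Ccr6 log2 values were 9.22 and 9.24 in the WT libraries, 9.50 and 8.88 in RelB-KO, 10.09 and 10.06 in Nfkb2-KO, and 9.31 and 8.75 in DKO. Both Nfkb2-KO values stood above the other 6, while WT, RelB-KO and DKO overlapped. Nfkb2-KO exceeded WT by 0.84 ± 0.24 (SE) on the log2 scale, a ratio of 1.79, with differences of 0.86 and 0.82 in replicates 1 and 2 (limma adjusted p = 0.295 without and 0.0309 with the block). The authors' deposited table has a log2 fold change of 0.79 with an adjusted p of 0.000177 for this comparison. Cells that lacked RelB as well did not have the higher level. DKO was below Nfkb2-KO by 1.04 on the log2 scale ± 0.24 (SE), a ratio of 0.485, with replicate differences of -0.78 and -1.31 (limma adjusted p = 0.155 without and 0.00725 with the block). Nfkb2-KO also exceeded RelB-KO by 0.88 (limma adjusted p = 0.221 without and 0.0174 with the block). The interaction was -0.999, and it was not called without the block (limma adjusted p = 1) or with it (0.135).

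The calls for Ccr6 with the block depended on single libraries. Against WT, the difference was 0.63 without WT replicate 1 and 0.66 without Nfkb2-KO replicate 2, with blocked limma adjusted p-values of 0.124 and 0.174. The DKO against Nfkb2-KO difference was -0.86 without Nfkb2-KO replicate 2 and -0.87 without DKO replicate 2 (adjusted p = 0.0543 and 0.125). Nfkb2-KO against RelB-KO gave 0.67 without RelB-KO replicate 2 and 0.70 without Nfkb2-KO replicate 2 (adjusted p = 0.115 and 0.112). The direction was the same in each.

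Ccl20, the gene for the CCR6 ligand, was also highest in Nfkb2-KO cells, at a lower level. Its log2 values were 6.41 and 6.55 in WT, 6.28 and 6.72 in RelB-KO, 7.69 and 7.41 in Nfkb2-KO, and 6.68 and 6.34 in DKO, so the Nfkb2-KO libraries again stood above the other 6. Nfkb2-KO exceeded WT by 1.07 ± 0.19 (SE; limma adjusted p = 0.117 without and 0.0154 with the block), and DKO was below Nfkb2-KO with a log2 difference of -1.04 (0.0839 and 0.0108). The blocked Ccl20 call against WT was lost without WT replicate 1 or Nfkb2-KO replicate 1 (0.88 to 1.25 over the 8 fits), and that in DKO against Nfkb2-KO without Nfkb2-KO replicate 1 or DKO replicate 2 (-1.26 to -0.83). Whether receptor and ligand changed in the same cells was not measured.

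**Figure D3:**
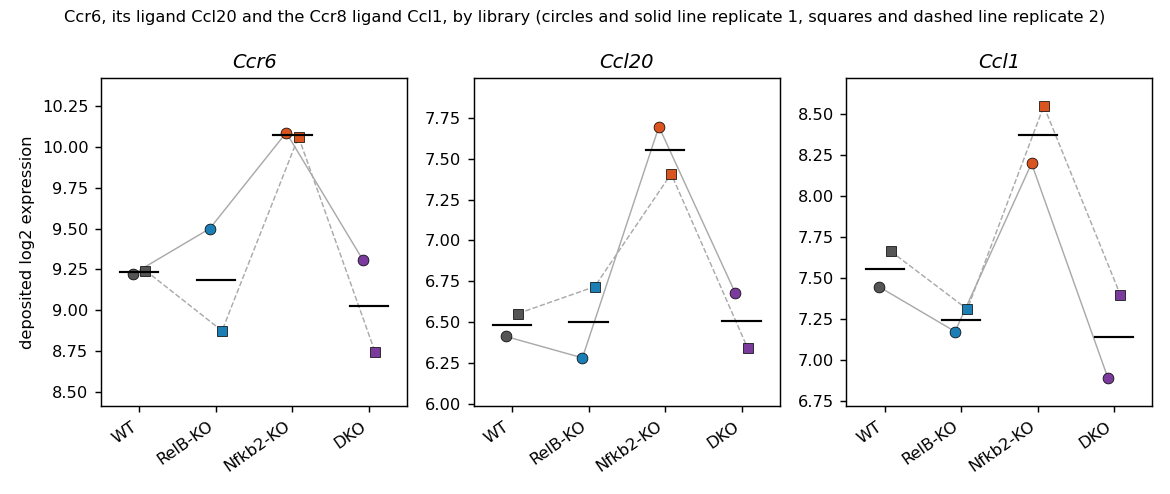
Deposited log2 expression (y axis) of Ccr6, Ccl20 and Ccl1 in each library by genotype (x axis), with circles and solid lines for replicate 1, squares and dashed lines for replicate 2 and black bars for the mean of 2 libraries. In all 3 genes both Nfkb2-KO libraries lie above the other 6 libraries.

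Cxcr3, the receptor that brings T-bet-expressing Treg cells to type 1 inflammation, lies on the X chromosome (GRCm38, 101731535 to 101734269, minus strand). Its log2 values were 10.44 and 10.52 in WT, 10.05 and 9.92 in RelB-KO, 10.31 and 9.97 in Nfkb2-KO, and 10.08 and 9.99 in DKO. Every knockout library was below both WT libraries, and the 3 knockouts overlapped each other. The log2 difference from WT was -0.49 ± 0.12 (SE) in RelB-KO, -0.34 ± 0.12 in Nfkb2-KO and -0.45 ± 0.12 in DKO, or ratios of 0.712, 0.791 and 0.734, and it was negative in both replicates of each. None was called by limma without the block (adjusted p = 1, 0.402 and 0.861). With the block none of the 3 was called either (limma adjusted p = 0.115 in Nfkb2-KO and 0.198 in DKO). The authors' deposited table gives -0.53 in RelB-KO and -0.48 in DKO with adjusted p-values of 0.0476 and 0.028, and -0.36 in Nfkb2-KO with 0.0785. With WT replicate 1, the library with the other Xist and Ddx3y levels, left out, the differences were -0.53, -0.38 and -0.49. Tbx21, which encodes T-bet, an activator of Cxcr3, was at 10.41 and 10.61 in WT, 9.44 and 10.28 in RelB-KO, 10.64 and 10.62 in Nfkb2-KO and 10.17 and 10.62 in DKO. It was not called against WT, and with the block it was called in Nfkb2-KO against RelB-KO (limma adjusted p = 0.038), a call that was lost in 4 of the 8 fits that left out a library.

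Cxcr4 on chromosome 1 had log2 values of 11.29 and 11.36 in WT, 11.69 and 10.82 in RelB-KO, 10.74 and 10.32 in Nfkb2-KO, and 11.14 and 10.34 in DKO. It had the widest range of the 7 over the libraries, 1.37 log2 units, and replicate 1 exceeded replicate 2 in each of the 3 knockouts. The Nfkb2-KO difference from WT was -0.80 ± 0.35 (SE), a ratio of 0.575, and both Nfkb2-KO libraries were below both WT libraries. Limma did not call it, with an adjusted p of 0.505 without and 0.0655 with the block. The blocked fit called it in Nfkb2-KO against WT when WT replicate 1 (-1.18, adjusted p = 0.0093), RelB-KO replicate 1 (-0.80, 0.042) or RelB-KO replicate 2 (-0.80, 0.0419) was left out. DKO was below WT by a log2 difference of -0.59 ± 0.35 (SE), and without the block it was -0.19 without DKO replicate 2 and -0.99 without DKO replicate 1, with neither called. The blocked fit called it when WT replicate 1 was left out (-0.97, adjusted p = 0.0464). The authors' deposited table gives -0.48 in Nfkb2-KO with an adjusted p of 0.105.

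Ccr4 and Ccr8, the receptors with the highest levels per kilobase, both had their highest means in DKO. Ccr4 lies on chromosome 9 (114490316 to 114504916, minus strand) and had log2 values of 11.83 and 12.24 in WT, 12.64 and 12.14 in RelB-KO, 12.36 and 12.25 in Nfkb2-KO, and 12.69 and 12.92 in DKO. The DKO libraries were above the other 6, by a small margin over RelB-KO replicate 1. The DKO difference from WT was 0.77 ± 0.20 (SE), a ratio of 1.70, with 0.85 and 0.68 in the 2 replicates (limma adjusted p = 0.861 without and 0.219 with the block). With the block, a call appeared only when RelB-KO replicate 1, a library outside this comparison, was left out, with the difference unchanged at 0.77. Leaving out WT replicate 1, the library with the other Xist and Ddx3y levels, gave a difference of 0.56 without the block. The authors' deposited table gives 0.50 with an adjusted p of 0.167.

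Ccr8, also on chromosome 9 (120092114 to 120094906, plus strand), had log2 values of 12.29 and 11.93 in WT, 12.50 and 11.91 in RelB-KO, 12.39 and 11.98 in Nfkb2-KO, and 12.61 and 12.46 in DKO. Replicate 1 was the higher library in every genotype, and DKO was above WT in both replicates. That difference was 0.43 ± 0.24 (SE), a ratio of 1.34 (limma adjusted p = 0.861 without and 0.215 with the block). In the authors' deposited table it is 0.44 with an adjusted p of 0.0206. The differences of Ccr8 in RelB-KO and Nfkb2-KO against WT were 0.10 and 0.08, with 95% intervals of -0.47 to 0.67 and -0.49 to 0.64. Ccl1, the gene for the CCR8 ligand, followed another order. It was at 7.45 and 7.66 in WT, 7.17 and 7.31 in RelB-KO, 8.20 and 8.55 in Nfkb2-KO and 6.89 and 7.40 in DKO. With the block it was called in Nfkb2-KO against WT (0.82, limma adjusted p = 0.006), in DKO against Nfkb2-KO (-1.23, 0.000574) and in the interaction (-0.92, 0.0446). The Ccl1 calls in the comparisons of Nfkb2-KO with WT and with DKO were made in all 8 fits that left out a library, and the interaction call was made in 1 of them.

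The summed level of Treg and other T cell markers was also highest in DKO, at 17.59 to 17.61 on the log2 scale against 17.34 to 17.50 in the other genotypes. Il2ra, the high-affinity IL-2 receptor chain, was the most abundant of them, with 16.33 and 16.52 in DKO and 15.93 to 16.18 elsewhere. Of the 7 markers, 3 had a positive and 4 a negative difference in DKO against WT, with a median of -0.04 on the log2 scale. The difference was 0.49 for Il2ra and -0.16 for Cd3e. Summed B cell markers were at 8.12 to 8.14 in DKO and 7.78 to 8.09 elsewhere. Of the 4 B cell markers that passed the filter, 2 had a positive and 2 a negative difference in DKO against WT, with a median of -0.02. They included Cd79b, at 0.46, and Cd22, at -0.28. None of the 7 Treg and T cell markers and none of the 4 B cell markers was called with or without the block. Limma called few genes of any kind in DKO against WT, 0.0145% without and 0.0652% with the block. The part of these shifts in the Ccr4 and Ccr8 values was not tested.

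Cxcr6, known from effector and tissue-resident T cells, and Ccr2 were called in no comparison with or without the block. The Cxcr6 log2 values were 9.68 and 10.01 in WT, 10.42 and 9.82 in RelB-KO, 9.92 and 9.94 in Nfkb2-KO, and 10.05 and 10.67 in DKO. Only the DKO libraries were both above both WT libraries, with a difference of 0.51 ± 0.26 (SE) and a 95% interval of -0.12 to 1.14 (limma adjusted p = 0.861). Cxcr6 lies within Fyco1 on the opposite strand, but 0 of its 1931 exonic bases overlap a Fyco1 exon. The Ccr2 log2 values were 8.59 and 9.22 in WT, 8.63 and 8.91 in RelB-KO, 8.73 and 8.73 in Nfkb2-KO, and 8.73 and 9.46 in DKO. Its differences from WT were -0.13 ± 0.29 (SE) in RelB-KO, -0.17 ± 0.29 in Nfkb2-KO and 0.19 ± 0.29 in DKO. All 4 genotypes overlapped.

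Of the 4 receptors on chromosome 9, Ccr4, Ccr8 and Cxcr6 varied together most closely. After subtraction of the mean of each replicate number, Pearson's r over the 8 libraries was 0.917 between Ccr4 and Ccr8, 0.907 between Ccr4 and Cxcr6 and 0.87 between Cxcr6 and Ccr8. Ccr2, the other gene there, had r between 0.613 and 0.696 with these 3. DKO replicate 2 had the highest centred value in all 4 genes. Cxcr3 and Ccr6, by contrast, had r = 0.05. These coefficients are a description, since the libraries share preparation, genotypes and replicate numbers.

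The table also listed 16 other chemokine receptors, and 10 passed the filter on low values. Limma called 0 of these 10 without the block in each of the 7 comparisons (at most 0.797% of all genes). At an unadjusted p under 0.05 the counts were 0, 3 and 1 in RelB-KO, Nfkb2-KO and DKO against WT, and 4, 1, 4 and 2 in DKO against Nfkb2-KO, DKO against RelB-KO, Nfkb2-KO against RelB-KO and the interaction. The shares of all genes at that p were 1.24%, 10.7% and 5.18% against WT. They were 9.86%, 2.88%, 11.9% and 4.45% in the other comparisons, in the order just given. The blocked model called Ccr1 and Cx3cr1 (both higher) and Cxcr5 (lower) in Nfkb2-KO against WT, beside 2.91% of all genes. Cxcr5, the receptor that takes cells into B cell follicles, had values of 9.38 and 9.50 in WT, 9.11 and 9.23 in RelB-KO, 8.76 and 8.50 in Nfkb2-KO, and 9.14 and 8.87 in DKO. Its Nfkb2-KO difference from WT was -0.81 ± 0.13 (SE), close in size to that of Cxcr4 and with a tighter spread (limma adjusted p = 0.0929 without and 0.00965 with the block). Ccr1 exceeded WT by 0.49 and Cx3cr1 by 0.36 in Nfkb2-KO (0.0236 and 0.0322 with the block), both at levels under 6 on the log2 scale. Leaving out a library ended the blocked call in 2 of 8 fits for Cxcr5, 4 for Ccr1 and 6 for Cx3cr1, with the direction kept. Nfkb2-KO against RelB-KO was also called with the block in these genes and in Xcr1 (4.46% of all genes called). These calls were kept in 6 of 8 fits that left out a library for Ccr1, 3 for Xcr1, and 2 each for Cxcr5 and Cx3cr1.

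**Figure D4:**
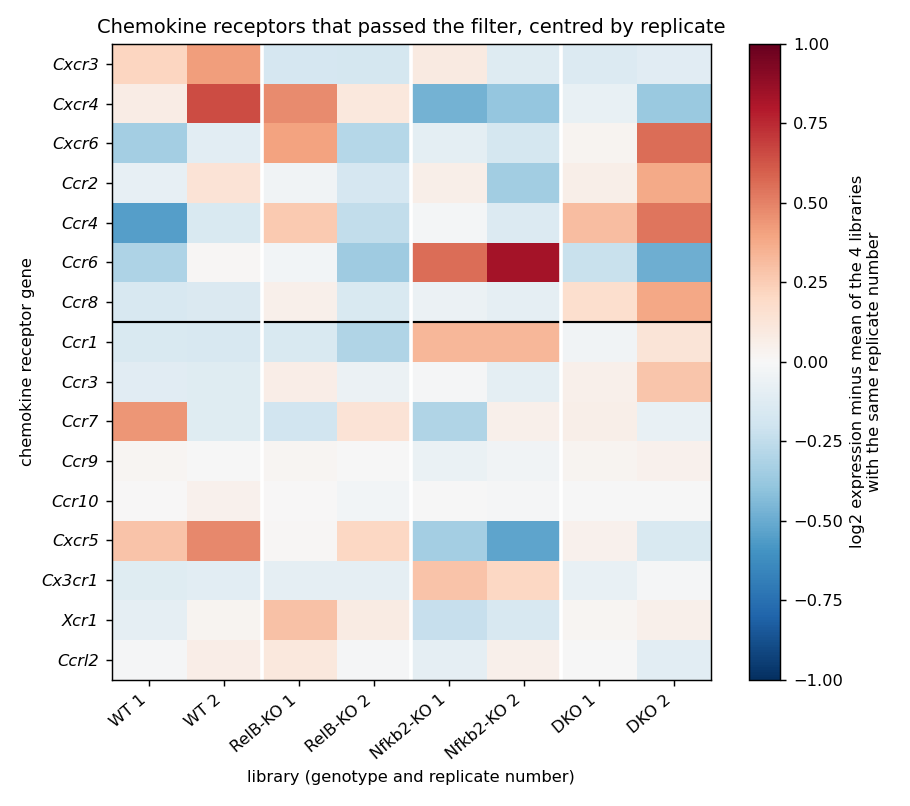
Log2 expression of 16 of the 17 chemokine receptor genes that passed the filter (rows; the 7 receptors described here above the line) in the 8 libraries (columns), each minus the mean of the 4 libraries with the same replicate number. Ccr6 has its highest values in the Nfkb2-KO libraries, at 0.56 and 0.83, and Cxcr4 and Cxcr5 have negative values there.

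Of 13 genes for ligands of the 7 receptors, 11 passed the filter, and limma called 0 of them without the block in each comparison (at most 0.797% of all genes). At an unadjusted p under 0.05 there were 0 in RelB-KO, 2 in Nfkb2-KO and 0 in DKO against WT, and 2, 0, 2 and 2 in DKO against Nfkb2-KO, DKO against RelB-KO, Nfkb2-KO against RelB-KO and the interaction. Of all genes, 1.24%, 10.7% and 5.18% passed that p against WT, and 9.86%, 2.88%, 11.9% and 4.45% in the other comparisons. With the block, Ccl20 and Ccl1 were called in Nfkb2-KO against WT (2.91% of all genes), and both were called with Cxcl10 in DKO against Nfkb2-KO (5.02%). Cxcl10, the interferon-induced ligand of CXCR3, was at 9.04 and 8.51 in Nfkb2-KO and 8.46 and 7.17 in DKO (difference -0.96, limma adjusted p = 0.035 with the block, lost in 4 of 8 fits that left out a library). The CXCR4 ligand gene Cxcl12 and Ccl8 were listed at 0.

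Of 31 genes for signalling and desensitization downstream of chemokine receptors, 30 passed the filter and limma called 0 without the block (at most 0.797% of all genes). At an unadjusted p under 0.05 the counts were 2, 6 and 3 in RelB-KO, Nfkb2-KO and DKO against WT, and 8, 0, 7 and 1 in the other comparisons in the same order as above. Of all genes, 1.24%, 10.7% and 5.18% passed that p against WT, and 9.86%, 2.88%, 11.9% and 4.45% in the other comparisons. The blocked model called 5.02% of all genes in DKO against Nfkb2-KO and 4.46% in Nfkb2-KO against RelB-KO. With the block, Rgs16, a regulator that shuts off G protein signals, was lower in DKO than in Nfkb2-KO, with a difference of -0.70 (limma adjusted p = 0.00624 with the block). Against RelB-KO, Nfkb2-KO was higher in Rgs16 and lower in Pik3r5, a PI3K-gamma adaptor, and Rasgrp2, an activator of Rap1 and integrins. The Rasgrp2 difference was -0.84 (limma adjusted p = 0.039 with the block). Each of these 3 genes lost a call in at least 1 fit that left out a library.

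All 29 genes for lineage factors and regulators of these receptors passed the filter. Without the block limma called 1 in DKO against Nfkb2-KO, the chromatin organizer Satb1 (0.768% of all genes called), 0 in each comparison with WT (at most 0.341%) and 1 in Nfkb2-KO against RelB-KO (0.797%). Satb1 was at 12.26 and 11.55 in WT, 12.20 and 11.94 in RelB-KO, 10.60 and 10.65 in Nfkb2-KO, and 12.29 and 12.28 in DKO, so it was lowest in the genotype where Ccr6 was highest. Its difference in DKO against Nfkb2-KO was 1.66 ± 0.22 (SE; limma adjusted p = 0.0322), a call made in 2 of the 8 fits without the block that left out a library. Counts at an unadjusted p under 0.05 were 0, 9 and 3 in RelB-KO, Nfkb2-KO and DKO against WT, beside 1.24%, 10.7% and 5.18% of all genes. The blocked model called 2.91% of all genes in Nfkb2-KO against WT and 5.02% in DKO against Nfkb2-KO. In Nfkb2-KO against WT the genes called with the block included Irf4, Stat5a and Runx3, which were higher, and Satb1 and Bcl6, which were lower. Bcl6, the factor of follicular T cells, which express Cxcr5, was lower by a log2 difference of -0.86 (adjusted p = 0.00905 with the block). In DKO against Nfkb2-KO the genes called with the block included Satb1, Prdm1, Maf and Lef1, which were higher, and Runx3, which was lower. Of these calls, those of Satb1 were made in all 8 fits that left out a library, while Prdm1, Maf, Lef1, Irf4, Stat5a, Runx3 and Bcl6 each lost a call in at least 1.

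For each receptor, the 3 genes most like it over the 8 libraries were found among about 1194 genes that varied enough, by Pearson's r after subtraction of replicate means. For Ccr6 they were Adck3 (r = 0.99), Icosl (0.988), the ICOS ligand gene, and Laptm4b (0.984). Icosl was at 6.59 and 6.92 in Nfkb2-KO and between 6.00 and 6.29 in the other libraries. Ccr4 was most like Il1rl1 (0.995), the gene for the IL-33 receptor of tissue Treg cells, Batf (0.979), an AP-1 family factor, and Tnfrsf8 (0.972), which encodes CD30. Il1rl1 was at 11.16 and 12.38 in WT and 12.99 and 13.65 in DKO. Ccr8 was most like Tnfrsf8 (0.971), Tox2 (0.965) and Il2ra (0.964), and Cxcr6 most like Slco3a1 (0.957), Spp1 (0.944), the osteopontin gene, and Il13 (0.941). Cxcr4 had Tcn2 (0.982), Mxd4 (0.972) and Jakmip1 (0.971), Cxcr3 had Gpr35 (0.952), Actg2 (0.894) and Ctse (0.877), and Ccr2 had Tspan5 (0.938) and Nfil3 (0.911) among its 3. The most alike of so many genes over 8 libraries has a high coefficient by selection, and these values carry no test.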

How the data were processed

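The authors deposited log2 expression values for 8 libraries, which the file header calls batch-corrected log2 RPKM. Un-logged and multiplied by exonic length in kilobases they summed to 110.1 to 114.0 M per library, where RPKM gives at most 1 M, so they are read as log2 expression relative to library size. STAR, the mm10 genome and DESeq2 1.10.1 are named without roles in the submitters' processing notes. The counting program, annotation, strandedness and batch method are not given in the sources used here. The design gives 30 M reads per sample, and the depth behind each value is unknown, so no counting interval is given. The authors also deposited a log2 fold change, p-value and adjusted p-value of each knockout against WT. Another 8 columns of z-scores were not used here.

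Of 22432 genes, 6247 listed at 0 throughout and 1 with a blank cell were left out, and 13797 whose un-logged values averaged 1 or more were tested. All 8 libraries entered one limma fit (3.58.1, R 4.3.3) with 4 genotype means, moderated variances and a variance trend (4 residual degrees of freedom), and p-values were adjusted by Benjamini-Hochberg over 13797 genes in each of 7 contrasts. Replicate numbers pair the samples by the data: the difference between replicates 1 and 2 correlated across genes at 0.812 to 0.887 in all pairs of genotypes. The fit with replicate number as a block left 3 residual degrees of freedom. The script was tested on simulated data. Alternatives were another pseudocount (1), filters (none, or a mean of at least 16), quantile normalization, no variance trend, only the genotypes compared, and each library left out. Coordinates and lengths are from GENCODE vM21. The lists of other receptors, ligands, signalling genes, regulators and cell markers, and the 7 receptors, were chosen with earlier results of these data known. The text names from each list the genes called in some contrast, and otherwise the largest difference. A few listed genes are not reported here.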

Additional observations from a re-analysis of the deposited data

How the results depend on the processing

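The 7 contrasts were recomputed under 7 other settings and with each library left out. The replicate block moved the count of receptors called from 0 to 1 in Nfkb2-KO against WT, in DKO against Nfkb2-KO and in Nfkb2-KO against RelB-KO, through Ccr6 (0.84, -1.04 and 0.88), and changed no other call among the 7 receptors. Quantile normalization, no filter, the stricter filter, the pseudocount of 1, no variance trend and fits of only the genotypes compared changed no call and reversed 0 differences. Leaving out a library without the block also changed no call but reversed 39 differences, against 353 that kept their direction. Many of the 353 could not have reversed. Leaving out a library of a genotype outside the comparison leaves that estimate unchanged, so the 353 does not measure stability. No receptor was called without the block, so the reversed differences were necessarily uncalled, and this does not show that called differences keep their direction.

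With the block kept, an alternative chosen after seeing the data, leaving out each library gave 0 to 2 receptors called in Nfkb2-KO against WT, 0 to 1 in DKO against WT, 0 to 2 in DKO against Nfkb2-KO and 0 to 2 in Nfkb2-KO against RelB-KO, and 0 in the other contrasts. The receptors added were Cxcr4 in comparisons of Nfkb2-KO with WT and with RelB-KO and of DKO with WT, and Ccr4 in comparisons of DKO with WT and with Nfkb2-KO. The cause was not tested.

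The ranges over the libraries left out, for the log2 differences that reversed in at least 1 fit, were as follows. In RelB-KO against WT, Cxcr4 ranged from -0.51 to 0.36, Cxcr6 from -0.019 to 0.58, Ccr2 from -0.45 to 0.18, Ccr6 from -0.36 to 0.27 and Ccr8 from -0.19 to 0.40, and Ccr6 with the replicate block from -0.26 to 0.17. In Nfkb2-KO against WT, Cxcr6 ranged from -0.078 to 0.25, Ccr2 from -0.48 to 0.15 and Ccr8 from -0.13 to 0.28. In DKO against WT, Ccr2 ranged from -0.17 to 0.56 and Ccr6 from -0.49 to 0.076, and Ccr6 with the replicate block from -0.42 to 0.0069. In DKO against Nfkb2-KO, Cxcr3 ranged from -0.27 to 0.058, Cxcr4 from -0.19 to 0.61 and Ccr2 from -0.0061 to 0.73. In DKO against RelB-KO, Cxcr3 ranged from -0.020 to 0.11, Cxcr6 from -0.075 to 0.55, Ccr2 from -0.044 to 0.69 and Ccr6 from -0.47 to 0.15, and Ccr6 with the replicate block from -0.38 to 0.058. In Nfkb2-KO against RelB-KO, Cxcr3 ranged from -0.014 to 0.32, Cxcr6 from -0.49 to 0.10, Ccr2 from -0.18 to 0.10, Ccr4 from -0.34 to 0.17 and Ccr8 from -0.32 to 0.27. In the interaction, Cxcr4 ranged from -0.15 to 0.72, Cxcr6 from -0.16 to 0.46, Ccr4 from -0.11 to 0.39 and Ccr8 from -0.045 to 0.54. Depth is unknown, so precision rests on 2 libraries per genotype.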

Other observations

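Of the 8 CD8 T and natural killer cell markers, 6 passed the filter and 0 were called by limma with or without the block. In any comparison at most 0.797% of all genes were called without the block and 5.02% with it. The summed log2 level of these markers was 9.14 to 9.76 over the libraries. Nkg7 was lower in replicate 1 than in replicate 2 of each genotype, at 8.14 to 8.68 against 8.87 to 9.22. Of 10 myeloid markers, 8 passed and 0 were called, beside the same shares of all genes, with sums between 7.62 and 8.13. Lyz2 was higher in replicate 1 than in replicate 2 of each genotype, at 5.08 to 5.79 against 4.72 to 4.74. Ccr7, the lymph node homing receptor, was at 13.09 in WT replicate 1 and between 12.20 and 12.71 in the other 7 libraries.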
